A study of Saccharomyces cerevisiae with 36 samples.

Results

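The upf3 deletion strain of budding yeast lacks Upf3, a core factor of nonsense-mediated decay, and was compared with wild type on 2 of 36 splicing arrays. The 2 arrays were taken by their titles and are a dye-swapped pair. Total RNA came from the upf3 strain and from BY4741, the wild type of the deletion collection, both grown at 26 °C. The whole series held 18 mutants with 2 arrays each. Among them, prp4-1a was kept for 2 hours at 37 °C with its own wild type, SS330, and dbr1 was set against RNA labelled wt, with no temperature given. The hsp104, brr1 and gcr3 deletions, which serve below for comparison, were also grown at 26 °C and set against BY4741. Hsp104 is a heat-shock chaperone, Brr1 a factor of snRNP biogenesis, and gcr3 is a deletion of STO1, which encodes a subunit of the complex that binds mRNA caps in the nucleus. Array 1 carried upf3 RNA in channel 2 and array 2 carried it in channel 1. Neither the number of cultures nor of deletion isolates is given in the sources used here, so the p-values measure only how far arrays scatter, and that scatter may be technical.

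Nonsense-mediated decay destroys mRNAs on which the ribosome stops too early. Upf1, Upf2 (encoded by NMD2) and Upf3 act together in it, and loss of any of them stabilises the substrates. In yeast, pre-mRNAs that leave the nucleus with their intron are among the best known substrates, because the intron usually brings an early stop codon. The unspliced transcript of RPL28 (also called CYH2) is the classic example. Transcripts of meiotic genes whose introns are removed poorly in dividing cells, such as REC107 (MER2), belong to the same class.

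Each intron was read by a probe for the intron, a probe for the spliced junction and a probe for an exon, by roles inferred from probe order. Values are log2 ratios of upf3 over wild type, so 1 is a doubling. Subtracting the exon probe of the gene from the intron probe gave an intron index, and subtracting it from the junction probe gave a junction index. Both rise when the exon probe falls further than the other probe, so the probes are given beside them. The excised intron lariat also binds an intron probe, and RNA amount and stability cannot be told apart on these arrays. Unless stated otherwise n = 2 arrays and ± is the standard error of the limma fit. The fit takes its spread from the arrays of all mutants together. The ± therefore does not measure how far the 2 upf3 arrays lie apart. Values are called changed where p, adjusted over all features of that kind, was under 0.05.

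The upf3 arrays gave 2549 and 2389 usable spots among the 2896 with a gene symbol, with a median SD between spots of a probe of 0.0972 and 0.097. UPF3 has no named probe, so the deletion itself could not be checked. Channel 2 over channel 1 is the likely direction, because the exon probe of STO1 stood at −5.81 and −5.37 in gcr3 and that of MUD1 at −2.49 and −2.63 in mud1, which lack these genes. The labels do not settle it. With the turned sign every direction given here would turn. The arrays differed at introns: the median intron probe was 0.02 on array 1 and 0.41 on array 2, whereas the exon medians were −0.14 and −0.18. The files used here hold no intensities, so dim probes could not be told from bright ones. Some probes outside introns were raised too: the 4 probes of GAL1, a galactose enzyme gene without an intron, had a median of 0.38 on array 1 and 0.86 on array 2. GAL10, also intronless, was raised as well, whereas the intronless HIS4, ADH1 and FAS1 were not. The 8 measured probes of MTR2, an export factor gene, had medians of 0.24 and 0.78, but their roles are uncertain and may include introns. The bearing of these raised probes on the intron values was not tested.

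Introns were raised in the upf3 strain far more often than they were lowered. Of 217 intron indices 76 rose (35.0%) and MAF1 alone fell (0.461%), with a median of 0.32. At the intron probes themselves 62 of 218 rose (28.4%) and 4 fell (1.83%), with a median of 0.21. Junction probes went the other way, with 69 of 225 lower (30.7%), 8 higher (3.56%) and a median of −0.30. Exon probes, which read the whole transcript, fell at 48 of 226 genes (21.2%) and rose at 15 (6.64%), with a median of −0.14. Junction indices changed at few introns, with 4 of 223 lower (1.79%) and 2 higher (0.897%).

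These counts rest on both arrays. Without array 1 the raised intron indices numbered 37, and without array 2 they numbered 14. The exon split depends on scaling: centring each array on its exon and intronless probes turned 15 higher and 48 lower into 37 and 10, and centring on all probes gave 23 and 18. These centrings moved every median of probe values up by 0.16 and 0.11. Junction probes then gave 8 higher and 7 lower, or 9 and 29, and intron probes 99 and 0, or 100 and 2. Of the 76 raised indices, 52 had a raised intron probe, 74 had an intron probe above 0, and 17 had a lowered exon probe with no call at the intron probe. The junction probe was lowered at 31 of the 76, against 30.7% of all junction probes, both counted without centring.

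The highest exon probe of the strain was that of a meiotic gene. REC107, needed for meiotic DNA breaks and spliced with the help of the meiotic factor Mer1, had exon probe values of 1.24 on array 1 and 1.96 on array 2. Its junction probe gave 1.44 and 1.71, and its intron probe 1.08 and 1.53. All 3 probes were thus high on both arrays. The exon probe averaged 1.60 ± 0.13, or 3.03-fold (adjusted p = 2.52e-10), the junction probe 1.58 ± 0.13 and the intron probe 1.31 ± 0.13. The intron index was −0.29 ± 0.14 (adjusted p = 0.11) and was not called.

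HFM1 (MER3), a helicase gene of meiotic crossing over and another Mer1-dependent transcript, gave 0.97 and 1.30 at its exon probe. This is 1.14 ± 0.14, or 2.2-fold (adjusted p = 4.86e-07). Its intron and junction probes had no usable spot on either upf3 array. The calls for REC107 and HFM1 at exon probes held in every alternative run for them.

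Other meiotic genes varied. Of 7 tested at exon probes 3 rose and 1 fell, against the 6.64% and 21.2% of all genes. MEI4, another gene of meiotic DNA breaks, stood at 0.27 and 0.73 (0.50 ± 0.14, adjusted p = 0.0126), and lost its call without either array. HOP2, a gene of meiotic chromosome pairing, was lower at −0.33 and −0.39 (−0.36 ± 0.13, adjusted p = 0.0356), a call that was also lost without either array and with either centring.

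REC114, which acts with REC107 and MEI4, differed by probe. Its junction probe gave 1.05 and 1.45 (1.25 ± 0.13), whereas its exon probe gave −0.26 and 0.52 (0.13 ± 0.10, adjusted p = 0.333). The junction index of 1.12 ± 0.10 was the highest tested in the strain (adjusted p = 5.6e-06) and kept its call without either array. The intron probe of REC114 had no usable spot. PCH2, a meiotic checkpoint gene, rose at its intron probe (0.25 and 1.06, 0.65 ± 0.16, adjusted p = 0.00242), though not without array 2. The exon probes of DMC1 and SPO1, −0.23 and −0.54 on array 1 against 0.62 and 0.32 on array 2, had opposite signs on the 2 arrays and gave no call.

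IWR1 carried the highest intron probe of the strain. The gene encodes a factor that guides RNA polymerase II into the nucleus. Its intron probe gave 1.97 and 2.27, its exon probe 1.14 and 1.39, and its junction probe 1.18 and 1.09. The intron form therefore rose most and the spliced form rose with it. The intron probe averaged 2.12 ± 0.13, or 4.34-fold (adjusted p = 4.73e-14), the exon probe 1.27 ± 0.13 (adjusted p = 2.86e-08) and the junction probe 1.13 ± 0.15 (adjusted p = 1.07e-05). The intron index rose by 0.85 ± 0.13.

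UBC12, which encodes the conjugating enzyme of the ubiquitin-like protein Rub1, also rose at all 3 probes. The junction probe stood above the exon probe, but the junction index of 0.36 was not called. The intron probe gave 1.56 and 1.40, the junction probe 0.99 and 0.71, and the exon probe 0.61 and 0.38. All 3 rose, by 1.48 ± 0.15, 0.85 ± 0.12 and 0.49 ± 0.09 (adjusted p = 2.61e-09, 1.52e-05 and 0.000383). DCN1, the gene of a ligase in the Rub1 pathway, rose at its intron probe (0.58 and 1.12, 0.85 ± 0.18), while its exon probe stood at 0.25 (adjusted p = 0.0767). RUB1 itself had an intron index of 0.23 (adjusted p = 0.319). Without array 2 the DCN1 intron probe lost its call.

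REC107, IWR1 and UBC12 were the genes called higher at all 3 kinds of probe, among 215 introns with all 3 tested. RPL22B, APS3, CIN2 and MRK1 rose at intron and exon probes but not at junctions. APS3, the small subunit gene of a vacuolar sorting adaptor, gave 0.64 and 0.67 at the intron and 0.66 and 0.42 at the exon. Its intron values rest on 1 usable spot on each array, and its intron call was lost without array 1. CIN2, a tubulin folding gene, averaged 0.50 ± 0.13 and 0.38 ± 0.11, and both calls were lost without either array. MRK1, a kinase gene, stood at 0.01 and 0.86 at the intron and 0.09 and 0.81 at the exon, so its values came mainly from array 2 and were not called without it.

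Other genes were raised at the exon probe too. TDA5 stood at 0.64 on both arrays (± 0.16, adjusted p = 0.00565) and lost its call without either of them. ATG38, an autophagy gene, rose by 0.55 ± 0.12 and MAF1, the repressor gene of RNA polymerase III, by 0.43 ± 0.15. ATG38 lost its call without array 2, and MAF1 without either array. RAD14, a DNA repair gene, passed narrowly (0.30 ± 0.12, adjusted p = 0.0493) and not without either array. GAL1 and GAL10, which have no intron, each rose by 0.63 (± 0.12 and ± 0.11), with GAL10 at 0.64 and 0.62 and GAL1 at 0.39 and 0.87. The GAL1 call was lost without array 2.

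**Figure D1:**
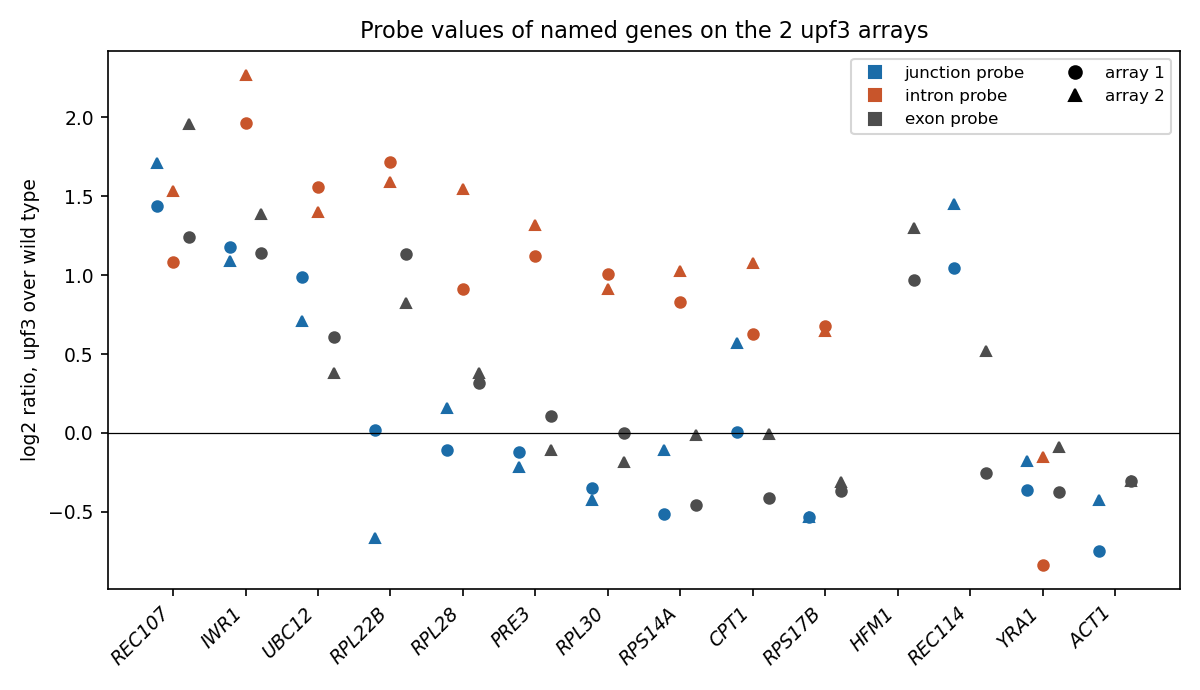
Log2 ratios of upf3 over wild type for junction, intron and exon probes of 14 named genes, with circles for array 1 and triangles for array 2. REC107, IWR1 and UBC12 lie above 0 at all 3 probes, and RPL28, PRE3 and RPS14A chiefly at the intron. HFM1, REC114 and ACT1 have no intron value, and HFM1 has no junction value either.

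The classic substrate RPL28, a ribosomal protein gene, rose at its intron and not clearly elsewhere. The intron probe gave 0.91 and 1.55, the exon probe 0.32 and 0.38, and the junction probe −0.11 and 0.16. The intron stood apart from the other probes on both arrays. The intron probe averaged 1.23 ± 0.13, or 2.35-fold (adjusted p = 9.51e-09), and the index 0.88 ± 0.24 (adjusted p = 0.00549). The exon probe at 0.35 ± 0.19 and the junction probe at 0.02 ± 0.13 did not pass (adjusted p = 0.151 and 0.861). The index call was lost without array 2, whereas the intron probe kept its call.

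RPS17B, a further ribosomal protein gene whose pre-mRNA is known to decay by this pathway, gave 0.68 and 0.65 at its intron probe. Its exon probe gave −0.37 and −0.31 and its junction probe −0.53 and −0.54. The intron lay above 0 and the other probes below 0 on both arrays. The intron probe rose by 0.66 ± 0.14 (adjusted p = 0.000583) and the exon probe fell by 0.34 ± 0.12 (adjusted p = 0.0412), while the junction probe did not pass (adjusted p = 0.0675). The intron index of 1.00 ± 0.19 kept its call in every alternative run for it, and the exon call was lost with either centring and without either array.

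In the list of transcripts known as unspliced substrates, with RPL28, RPS17B, REC107 and HFM1, all 3 measured intron probes rose, against 28.4% of all introns, with a median of 1.23 against 0.21. By the intron index 2 of these 3 rose, against 35.0% of all introns, and REC107, at −0.29, was not called. At exon probes 2 of the 4 genes rose and 1 fell, against 6.64% and 21.2% of all genes.

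RPL22B changed form. It encodes a ribosomal protein that is known to bind its own intron and hold back splicing. The intron probe gave 1.72 and 1.59, the exon probe 1.13 and 0.83, and the junction probe 0.02 and −0.66. Intron and exon were high on both arrays while the junction was not. The intron probe rose by 1.65 ± 0.13, or 3.15-fold (adjusted p = 2.16e-11), and the exon probe by 0.98 ± 0.10 (adjusted p = 3.56e-08). The junction index of −1.11 and −1.49 averaged −1.30 ± 0.09 (adjusted p = 5.66e-10), the lowest called value of the strain, and the call held in every alternative run for it. The junction probe itself, at −0.32 ± 0.12 (adjusted p = 0.0432), had opposite signs on the 2 arrays and was not called without either of them.

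Its copy RPL22A showed a smaller shift, with 0.64 and 0.77 at the intron, 0.06 and −0.13 at the exon and −0.15 and −0.69 at the junction. The intron probe rose by 0.70 ± 0.16 (adjusted p = 0.000674) and the junction index fell by 0.39 ± 0.10 (adjusted p = 0.0329), although the latter was not called without either array. Exon probes of near-identical copies may bind RNA of both, which was not tested.

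Other autoregulated genes split. RPL30, whose protein blocks splicing of its own transcript, gave 1.01 and 0.91 at the intron and −0.35 and −0.43 at the junction. The intron probe rose by 0.96 ± 0.14 (adjusted p = 2.32e-06), and the junction index fell by 0.29 ± 0.08 (adjusted p = 0.0329, lost without either array). RPS9B had an intron index of 0.82 and 1.37 (1.09 ± 0.20, adjusted p = 0.000251, lost without array 2). Its copy RPS9A had 0.41 and 0.12 (0.26 ± 0.17, adjusted p = 0.261).

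The copies of RPS14 also stood apart: RPS14A had intron indices of 1.29 and 1.04 (1.17 ± 0.15, adjusted p = 5.01e-06) and RPS14B, whose splicing is repressed by its own protein, 0.07 and 0.09 (0.08 ± 0.14, adjusted p = 0.688). Differences between copies were not tested. YRA1, an mRNA export gene with an autoregulated intron, went the other way, with −0.83 and −0.15 at its intron probe (−0.49 ± 0.19, adjusted p = 0.0431). That call was lost without either array and with either centring. DBP2, an RNA helicase gene with an autoregulated intron, had an intron probe of −0.34 (adjusted p = 0.129) and a lower exon probe (−0.30 ± 0.09, adjusted p = 0.0115, lost with either centring and without either array). Of the 8 autoregulated introns 4 rose by the index, against 35.0% of all introns, with a median of 0.47 against 0.32. By the junction index 3 of the 8 fell, against 1.79% of all.

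Ribosomal protein genes, which make up much of the intron-bearing RNA of growing yeast, held most raised introns. Of 99 indices 53 rose, with a median of 0.57, against 23 of 118 other introns with a median of 0.16. RPL35B led with 1.17 and 1.32 (1.25 ± 0.19, adjusted p = 2.67e-05), and its copy RPL35A gave 0.96 and 1.20 (1.08 ± 0.19). Besides RPS14A, RPS9B and RPL30, given above, high indices stood at RPS13 (1.13 ± 0.27), RPS24A (1.06 ± 0.15) and RPS26A (1.01 ± 0.23). The exon probes of RPL35B, RPL35A, RPS13, RPS24A and RPS26A stood between −0.33 (RPS24A, called lower) and −0.13 (RPS13).

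Among 97 of these genes 23 fell at the exon probe, a share close to the 21.2% of all genes, and RPL22B alone rose. Their junction probes fell at 44 of 99, against 30.7% of all, and rose at RPS26A. At the intron probes 42 of 99 rose, against 28.4% of all, with a median of 0.34 against 0.13 at other genes. RPS24A gave 0.73 and 0.74 at the intron, −0.34 and −0.31 at the exon and −0.48 and −0.65 at the junction. RPS13 and RPS26A lost the index call without array 2.

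**Figure D2:**
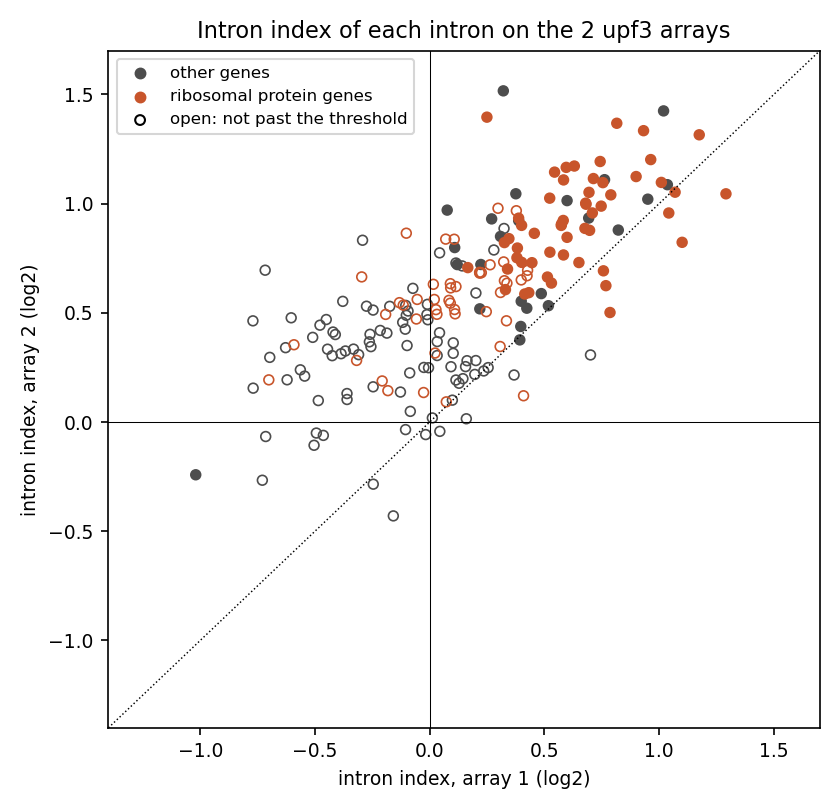
Intron index (log2) on array 1 against array 2 for the 207 introns measured on both, with ribosomal protein genes in orange, other genes in grey and filled points past the threshold. Of these, 189 lie above the dotted line of equality, and the 53 filled points of ribosomal protein genes lie above 0 on both arrays.

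Outside the ribosome, PRE3 and CPT1 had the highest intron indices. PRE3, a catalytic subunit gene of the proteasome, gave 1.12 and 1.32 at the intron, 0.11 and −0.11 at the exon and −0.12 and −0.22 at the junction. The intron probe rose by 1.22 ± 0.17, or 2.33-fold (adjusted p = 2.32e-06), with the other probes near 0. CPT1, a gene of phospholipid synthesis, gave 0.63 and 1.08 at the intron, 0.00 and 0.57 at the junction and −0.41 and −0.01 at the exon. Its intron index of 1.06 ± 0.18 (adjusted p = 0.000118) and its junction index of 0.50 ± 0.10 (adjusted p = 0.00519) both rose. The junction value rests on 1 usable spot on array 2, and the junction call was lost where 3 usable spots were required and without either array.

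The cytoskeleton list had 5 of 12 introns raised, led by the actin regulators PFY1 (profilin, 0.94 ± 0.19) and COF1 (cofilin, 0.81 ± 0.17, lost without array 2). Their median was 0.25 against 0.32 over all introns. The PFY1 intron probe had 1 usable spot on array 2. Of 9 ubiquitin and proteasome introns 3 rose, PRE3, UBC12 and DCN1, with a median of 0.23. Of 15 secretion and vacuole introns 4 rose, with VMA10, a proton pump gene, at 0.81 ± 0.21, which did not pass without either array. The shares lie around the 35.0% of all introns. The 7 mitochondrial and the 7 mRNA processing and export introns gave no call in limma, with medians of 0.10 and 0.01 (1 and 0 higher at an unadjusted p under 0.05). NMD2, the UPF2 gene, stood at 0.16 at the intron and −0.09 at the exon (adjusted p = 0.549 and 0.6).

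Some intron-bearing genes host small nucleolar RNAs. Of 9 indices in these host genes, introns without a snoRNA included, 2 rose, RPS22B intron 1 and RPL7B intron 1, against 35.0% of all introns. The median was −0.01 against 0.32, a difference that was not tested. In RPS22B the upstream intron gave 0.53 and 0.87 at its probe (0.70 ± 0.14, adjusted p = 0.000319) and the downstream intron, which holds the snoRNA, −0.47 and 0.01 (−0.23 ± 0.15, adjusted p = 0.235). In RPL7B the indices were 0.65 ± 0.18 upstream and 0.18 ± 0.19 downstream, where the snoRNA lies. The upstream intron was the higher of the pair on both arrays in each gene, a difference that was not tested. In RPL7B each intron probe had 1 usable spot on array 2. The upstream RPS22B index and the RPL7B index were not called without array 2. At exon probes 5 of 8 host genes fell, against 21.2% of all genes, with a median of −0.37 against −0.14. The calls of NOG2, ASC1, RPL7A and RPL7B among them were lost without either array, and those of NOG2, ASC1 and RPL7B with exon centring.

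**Figure D3:**
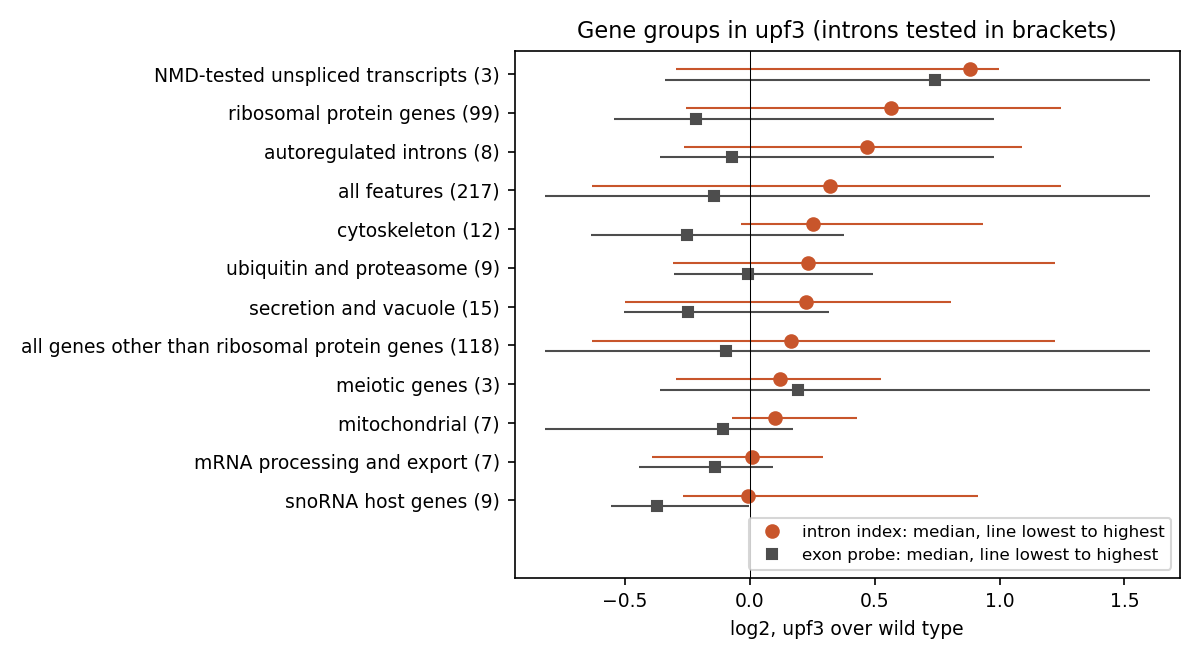
Medians of the intron index (circles) and the exon probe (squares), log2 of upf3 over wild type, with lines from the lowest to the highest member of each gene group and the number of introns tested in brackets. Ribosomal protein genes have a median intron index of 0.57 and an exon median of −0.22, while snoRNA host genes lie at −0.01 and −0.37.

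Few introns fell. The intron probes called lower were YRA1, both introns of SRC1 and KEI1. SRC1, a nuclear envelope gene with alternative splicing, gave −0.80 and −0.17 at intron 1 and −0.88 and −0.07 at intron 2, so the low values came from array 1. They averaged −0.49 ± 0.16 and −0.47 ± 0.16, and both calls were lost without array 1 and with exon centring. KEI1, a sphingolipid synthesis gene, was measured at the intron on array 1 alone, by 1 usable spot (−0.72, fitted −0.61 ± 0.19), and lost its call with exon centring. The lowered index of MAF1, with −1.02 and −0.24 (−0.63 ± 0.17, adjusted p = 0.00541), came with a raised exon probe and was lost without array 1.

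At junctions the calls were few after the exon was subtracted. Besides RPL22B, RPL22A and RPL30, the junction index of MRK1 fell, with −0.67 and −0.48 (−0.58 ± 0.11, adjusted p = 0.00224), and lost its call without array 1. The raised junction probes were those of REC107, REC114, IWR1, UBC12, RPS26A, ATG38, MAF1 and VPS75, a histone chaperone gene. Of these REC107 and REC114 belong to meiosis. The junction calls of RPS26A, ATG38 and VPS75 were lost without either array, and that of MAF1 without array 2.

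Among transcripts lower at the exon probe, COX4, a subunit gene of cytochrome oxidase, fell most. It gave −0.78 and −0.86 at the exon, and −0.77 and −0.86 at the junction. Both probes lay close together on both arrays, with an exon mean of −0.82 ± 0.12, or 1.77-fold lower (adjusted p = 2.28e-05). PMI40, a gene of mannose metabolism (−0.80 and −0.75), and MOB2, a kinase activator gene (−0.64 and −0.63), fell by 0.77 ± 0.16 and 0.64 ± 0.13.

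MPT5, which encodes an RNA-binding protein of the Puf family, ECM33, a cell wall gene, and GLC7, a protein phosphatase gene, fell by 0.68 ± 0.19, 0.63 ± 0.16 and 0.61 ± 0.16. The last 3 were lower on array 1, at −0.90, −0.88 and −0.79, than on array 2, at −0.46, −0.37 and −0.42. COX4 kept its call in all 13 alternatives, whereas PMI40, MOB2, MPT5, ECM33 and GLC7 lost theirs without array 1, and MPT5, ECM33 and GLC7 also with exon centring. ACT1 (−0.30 ± 0.10, adjusted p = 0.029) and FAS1, a fatty acid synthase gene without an intron (−0.26 ± 0.09, adjusted p = 0.0356), were called lower too, and both calls were lost with either centring and without either array. HIS4 and ADH1, also without introns, stood at −0.14 each (adjusted p = 0.312 and 0.29).

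In the hsp104 deletion limma called 0 features in each of the 5 measures, with at most 1 higher and 0 lower at an unadjusted p under 0.05. Set directly against hsp104, which shares the wild type, 30 of 216 intron indices were higher in upf3 (13.9%) and 0 lower (0.0%, limma, with 3 lower at an unadjusted p under 0.05). Without array 1 the higher introns numbered 7 and without array 2 they numbered 5. RPS24A was 1.33 ± 0.21 above hsp104, with −0.26 and −0.28 there, and RPS14A 1.32 ± 0.21 above it (adjusted p = 0.000121 for both). RPL35B was 1.23 ± 0.27 above it (adjusted p = 0.00512). RPL28 missed the threshold in this comparison (0.91 ± 0.33, adjusted p = 0.0636).

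At exon probes 10 of 226 genes were higher in upf3 than in hsp104 (4.42%) and 23 lower (10.2%). REC107 stood at −0.45 and 0.06 in hsp104, and the difference was 1.80 ± 0.18 (adjusted p = 4.01e-08). IWR1 was 1.23 ± 0.18 higher (adjusted p = 3.88e-05) and HFM1 1.10 ± 0.19 higher (adjusted p = 0.00032), each with hsp104 values within 0.16 of 0. RPL22B was 0.95 ± 0.14 higher (adjusted p = 4.17e-05). PMI40, COX4 and MPT5 were lower, with differences of −1.02 ± 0.23, −0.91 ± 0.18 and −0.88 ± 0.27, of which PMI40 was not called without array 1 and MPT5 without either array or with either centring. Centring each array on exon and intronless probes turned the split into 22 higher and 4 lower, and centring on all probes into 12 and 4.

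**Figure D4:**
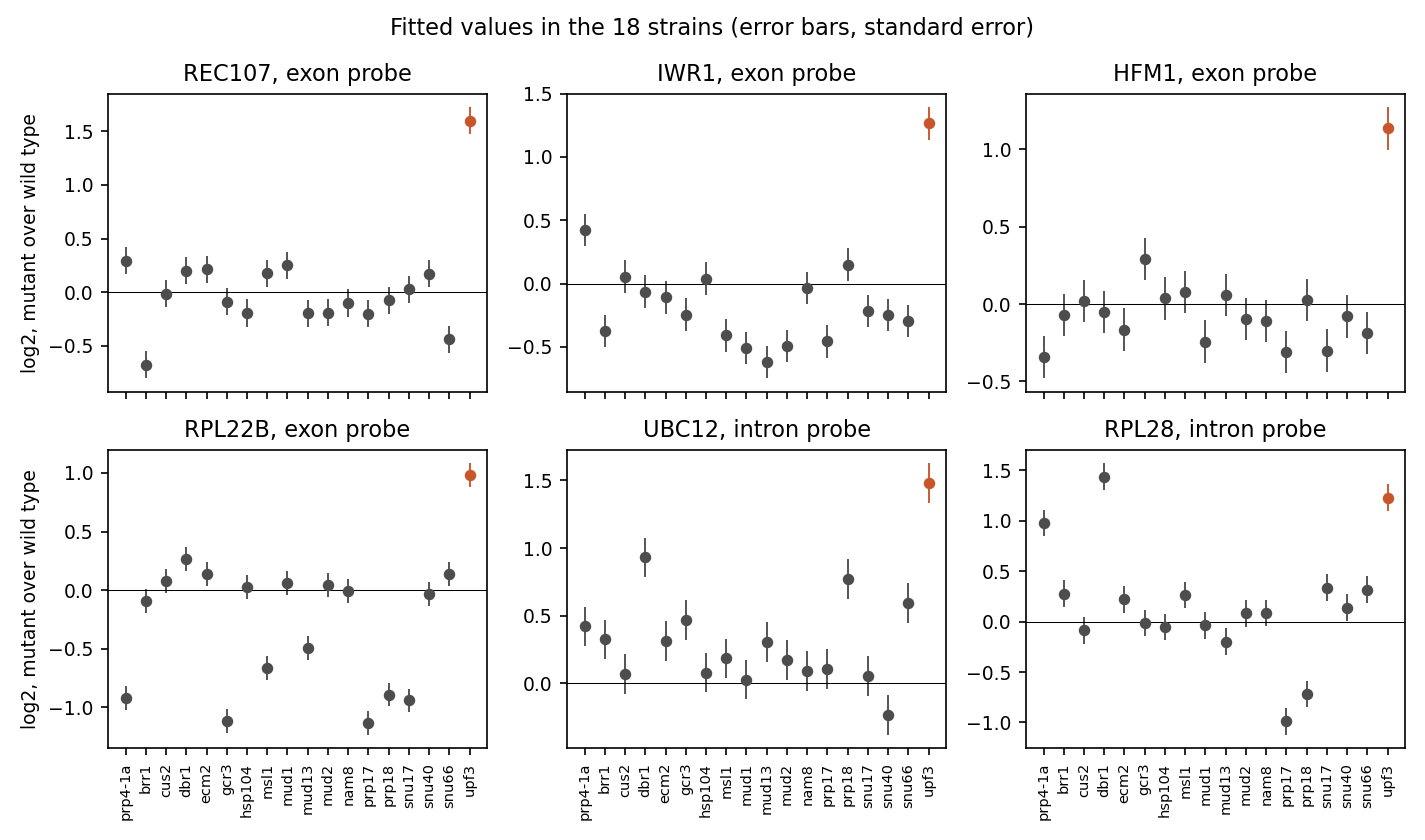
Fitted log2 ratios of mutant over wild type in the 18 strains, with standard errors, for exon probes of REC107, IWR1, HFM1 and RPL22B and intron probes of UBC12 and RPL28. The upf3 value (orange) is the highest of the 18 at the 4 exon probes and the UBC12 intron, while dbr1 is higher at the RPL28 intron (1.44 against 1.23).

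Over the 18 strains the exon probe of REC107 ranged from −0.68 in brr1 to 0.29 in prp4-1a outside upf3, and that of HFM1 from −0.34 in prp4-1a to 0.29 in gcr3. The exon probe of IWR1 reached 0.42 in prp4-1a, and that of RPL22B 0.26 in dbr1. The upf3 values of 1.60, 1.14, 1.27 and 0.98 were the highest of the 18 strains. The intron probe of CPT1, 0.85 in upf3, was at most 0.00 elsewhere. Apart from hsp104 these ranks were not tested. The genes of these exon probes were named for their high upf3 values, which favours a first rank. Of 224 exon probes measured in all strains upf3 was the highest at 19 and the lowest at 6. Of 198 intron probes it was the highest at 5 and the lowest at 24. At most introns upf3 was not extreme by the index either: of 197 intron indices it was the highest at 1 and the lowest at 16.

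Against the splicing factor deletion brr1, 140 of 216 intron indices were lower in upf3 (64.8%) and 3 higher (1.39%). RIM1, a mitochondrial DNA-binding protein gene, had 0.04 in upf3 and 2.67 in brr1, a difference of −2.62 ± 0.27 (adjusted p = 3.99e-08). EFM5 intron 2 (−2.49 ± 0.25) and RUB1 (−2.28 ± 0.24) followed. The 3 higher introns were CPT1 (0.83 ± 0.31, with 1 brr1 array measured), SPO1, a meiotic gene (0.58 ± 0.23), and UBC12 (0.55 ± 0.24). They passed narrowly, with adjusted p = 0.0223, 0.0325 and 0.0405, and were lost without array 1 (CPT1) or without either array (SPO1 and UBC12).

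Against gcr3, 67 of 217 indices were lower in upf3 (30.9%) and 9 higher (4.15%). RPL20B, a ribosomal protein gene, gave 0.68 and 0.89 in upf3 and −1.18 and −1.02 in gcr3. The difference was 1.88 ± 0.26 (adjusted p = 1.54e-06), and it held in all 10 alternatives. CPT1 was 1.15 ± 0.25 and RPS14A 1.09 ± 0.21 higher in upf3. UBC13, a ubiquitin-conjugating enzyme gene, and SNC1, a vesicle fusion gene measured on 1 upf3 array, were lower, with differences of −2.38 ± 0.27 and −2.69 ± 0.34. STO1, at −6.35 ± 0.32, is the gene deleted in gcr3, where its exon probe had the values given above.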

How the data were processed

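The deposited values are log2 ratios of the 2 channels, 1 per spot and array, per the file headers of the authors' series matrix. Scaling, background treatment and direction: not given in the sources used here. The base was inferred: 21 of 148 differences between recurring values lay within 3e-08 of a whole-number ratio (numbers to 400) read at base 2, against 0 at base e and 1 at base 10. The recurring values themselves did not decide it, with 0 of 179 near such a ratio at base 2, 1 at base e and 1 at base 10.

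Of 3456 spots, 864 probes with 4 spots each, 2896 carried 1 of 230 gene symbols, all found in the gene table. Exact zeros and blanks were treated as missing and spots of a probe averaged. Probe order gave the roles: 216 genes with 3 probes (junction, intron, exon) and 7 with 5, or 230 introns. The 5 intronless genes joined the exon values, and 21 probes of uncertain role were kept apart. Signs were set by the labelled channel so that mutant stands over wild type.

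All 36 arrays entered 1 fit in limma 3.58.1 under R 4.3.3. Each mutant had its own term, a dye effect was shared, and Benjamini-Hochberg adjustment ran over all features of a measure. Residual degrees of freedom had a median of 17. The procedure was tested on simulated data with the same spread in every strain and no dye effect. That test cannot show how the p-values hold where strains differ in spread. Alternatives covered centring, the dye term, spot averaging and filtering, zeros, the spread estimate, array weights, the strains fitted and leaving out each upf3 array. The number of arrays limits the precision.

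Genes are named by rule: among called values the 12 highest and up to 6 lowest intron indices, the 4 highest and 6 lowest junction indices, the 6 highest and 6 lowest exon values, up to 6 called members of each of 11 lists, a set of known substrates and autoregulated genes, and the 3 highest and lowest of each strain contrast. APS3, CIN2, ATG38, RAD14, MEI4, HOP2, PCH2, KEI1, NMD2 and VPS75 were named after their values were seen, as were the genes drawn in the plots. Members, lists and tests were chosen with earlier results of these data known. AMA1 is not analysed here.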

Additional observations from a re-analysis of the deposited data

Results flagged for a closer look

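The effect of upf3 differed from that of another deletion, by a direct contrast in the same fit, at the introns and exon probes named here. The strains share a wild type. Against hsp104 the intron indices of RPS24A, RPS14A and RPL35B were higher by 1.33, 1.32 and 1.23. Exon probes of REC107, IWR1 and HFM1 were higher than in hsp104 by 1.80, 1.23 and 1.10, and those of PMI40, COX4 and MPT5 differed by −1.02, −0.91 and −0.88. Against brr1 the indices of CPT1, SPO1 and UBC12 were higher by 0.83, 0.58 and 0.55, and RIM1, EFM5 intron 2 and RUB1 differed by −2.62, −2.49 and −2.28. Against gcr3 RPL20B, CPT1 and RPS14A were higher by 1.88, 1.15 and 1.09, and STO1, SNC1 and UBC13 differed by −6.35, −2.69 and −2.38. STO1 is the gene deleted in gcr3, so its exon probe is low there, and SNC1 was measured on 1 upf3 array.

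Among 59 probes outside the measures that were read on both upf3 and both hsp104 arrays, 4 stood above both hsp104 values with a mean over 0.5. MTR2 probe 3 had a mean of 0.94 (1.04 and 0.85, against −0.20 and −0.01 in hsp104), MTR2 probe 1 of 0.59 and MTR2 probe 6 of 0.58. A probe without a gene symbol, number 114, had a mean of 0.64 (0.83 and 0.44). These differences were not tested, and MTR2 probe 3 reached 2.46 on another array of the series.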

How the results depend on the processing

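With 2 arrays, no intensities and inferred probe roles, low and high probes cannot be separated by signal over background. Over all settings 0 of 4420 recomputed values of named features changed sign past the threshold, with 3837 on the same side of it, 425 that lost and 158 that gained a call. Of 145 named calls over wild type 68 were kept without array 1, 55 without array 2 and 38 under every alternative. The replicate numbers came from accession order. No paired analysis was possible because each array already holds mutant and wild type and the numbers carry no pairing.

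Counts of calls moved as follows, in the order intron index, junction index, exon probes, intron probes and junction probes (77, 6, 63, 66 and 77 as reported). Leaving out an array gave 15 to 37, 2 to 4, 13 to 16, 34 to 43 and 10 to 19. The 2 upf3 arrays alone gave 45, 2, 32, 33 and 0 (limma, with 10 higher and 81 lower junction probes at an unadjusted p under 0.05). Weighting arrays by the spread of their mutant gave 129, 99, 152, 123 and 165. With deletion strains at 26 °C only, 26 junction indices, 102 intron probes and 133 junction probes were called. With no dye term the exon probes gave 31 and the junction probes 40. Zeros kept as values left 2 junction indices. Centring on all probes gave 41 exon, 102 intron and 38 junction probes, and exon centring 15 junction probes. Against hsp104 the intron indices numbered 30 and the exon probes 33, against 10 and 11 with no dye term, 118 and 74 with weights, 79 and 52 with deletion strains only, 5 to 7 and 10 to 10 with an array left out, and 16 exon probes when centred on all probes. Against brr1 143 introns became 97 to 132 with an array left out, and against gcr3 76 became 48 to 70, and 137 with weights. The cause of these shifts was not tested.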
